A study of Mus musculus with 13 samples.

Results

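SR proteins and hnRNP proteins are the 2 large families of RNA-binding factors that steer the choice of splice sites, and their genes were followed here in nascent kidney RNA after deletion of Spns1, an endolysosomal transporter, or after an iron load. The members are the rows of the deposited gene table whose symbol is Srsf with a number (SR proteins, 11 genes) or starts with Hnrnp and a letter, pseudogenes aside (hnRNP proteins, 20 genes), which gives 31 genes of 35013 in the table. The study collected 13 libraries of 4-thiouracil-tagged RNA from kidneys of female mice, labelled as proximal tubule, of which 5 are WT Control (WT), 4 are Spns1 KO and 4 are Iron Overload (FeO). Spns1 KO mice were Spns1 flox/flox, with Megalin3'Cre-Ert and Uprt flox/+. By the methods WT and FeO mice, littermates with the same Cre and Uprt alleles, were Spns1 flox/+, whereas the labels give Spns1 WT. All 3 groups thus carried the tamoxifen-inducible Cre driven from the megalin locus and a floxed allele of Uprt, the enzyme that lets cells build 4-thiouracil into new RNA, and all received tamoxifen. FeO mice received 12 mg a day by injection for 3 days, given in the labels as a weight of iron sucrose and in the methods as elemental iron, and their kidneys were taken 1 week later. The labels give no age and do not say that each library is a separate mouse, so p-values measure the spread between these libraries.

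SR proteins pair RNA recognition motifs with a tail rich in arginine and serine, the RS domain. When the serines are phosphorylated by SRPK and CLK kinases, SR proteins enter the nucleus, bind exonic enhancers and help recruit U1 and U2 snRNPs to nearby splice sites. The hnRNPs are a mixed family that coats nascent transcripts through RNA recognition or KH motifs and often counteracts SR proteins by masking or looping out exons, and many members of both families tune their own mRNA through alternative exons that lead to nonsense-mediated decay. Most kidney cells use both families, so they are not markers of a segment.

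The tail that defines the SR family differs in strength between the members that the results below turn on, and the coding sequence of its densest 30 codons is shown for 4 of them. Each line gives spliced coding sequence of GRCm38 (GENCODE M21, the transcript with the longest coding sequence) 5′ to 3′, and capitals mark codons that belong to an arginine-serine or serine-arginine pair. The Srsf9 window runs over exons 3 to 4 (chr5:115332278-115332653, plus strand), that of Srsf4 over exons 4 to 5 (chr4:131897828-131900107, plus strand), that of Srsf5 lies in exon 8 (chr12:80949757-80949846, plus strand) and that of Srsf11 runs over exons 8 to 9 (chr3:158016423-158017868, minus strand), with introns left out.
Srsf9: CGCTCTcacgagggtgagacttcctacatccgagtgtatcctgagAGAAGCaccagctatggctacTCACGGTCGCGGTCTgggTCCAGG
Srsf4: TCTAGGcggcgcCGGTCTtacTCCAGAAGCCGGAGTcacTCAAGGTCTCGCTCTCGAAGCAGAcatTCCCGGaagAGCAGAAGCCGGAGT
Srsf5: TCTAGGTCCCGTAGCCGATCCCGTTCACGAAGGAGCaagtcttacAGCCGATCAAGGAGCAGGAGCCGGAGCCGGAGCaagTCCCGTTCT
Srsf11: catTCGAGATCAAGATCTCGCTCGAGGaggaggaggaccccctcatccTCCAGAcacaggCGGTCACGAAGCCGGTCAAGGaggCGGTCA
In these windows 11 of 30 codons were in pairs in Srsf9, 24 in Srsf4, 26 in Srsf5 and 19 in Srsf11. Over the whole coding sequence, 6.76% of the 222 codons of Srsf9 were in pairs, the lowest share among the 11 SR genes, against 29.1% of the 491 codons of Srsf4. The other SR genes ranged from 11.9% in Srsf11 to 31.1% in Srsf7. The 20 hnRNP genes ranged from 0.549% in Hnrnpm to 4.52% in Hnrnpdl.

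Promoter sequences are shown for Srsf9 and Hnrnpab, the members that rose in both models, and for Srsf5, which fell in FeO. Each is the 250 bases before the RefSeq transcription start in GRCm38.p6, 5′ to 3′ on the gene's strand, and capitals mark matches on either strand to CCAAT (the CCAAT box) or CCGGAAG (a core that ETS factors bind).
Srsf9, chr5:115326927-115327176, plus strand: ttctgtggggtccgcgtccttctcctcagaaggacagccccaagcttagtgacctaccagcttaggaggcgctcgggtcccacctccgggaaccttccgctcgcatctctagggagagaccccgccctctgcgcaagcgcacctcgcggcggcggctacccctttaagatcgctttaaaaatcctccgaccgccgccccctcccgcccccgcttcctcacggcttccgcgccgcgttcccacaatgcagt
Hnrnpab, chr11:51606882-51607131, minus strand: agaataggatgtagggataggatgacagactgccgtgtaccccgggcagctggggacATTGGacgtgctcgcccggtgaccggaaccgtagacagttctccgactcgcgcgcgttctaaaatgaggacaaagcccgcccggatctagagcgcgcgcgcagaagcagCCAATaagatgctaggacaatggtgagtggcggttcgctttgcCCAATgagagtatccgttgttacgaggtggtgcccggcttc
Srsf5, chr12:80945249-80945498, plus strand: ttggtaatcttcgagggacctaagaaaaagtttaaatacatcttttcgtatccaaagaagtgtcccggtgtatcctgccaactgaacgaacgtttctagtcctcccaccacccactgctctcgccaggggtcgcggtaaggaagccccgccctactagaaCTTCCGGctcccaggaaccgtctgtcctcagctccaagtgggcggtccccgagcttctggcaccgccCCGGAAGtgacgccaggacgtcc
The Hnrnpab window held 3 CCAAT boxes, that of Srsf5 2 ETS cores and that of Srsf9 neither. GGGCGG (the GC box) was searched as well but is not in capitals, and it occurred 3 times in Srsf9, once in Hnrnpab and 3 times in Srsf5. Among the others that changed, Hnrnpc held 4 CCAAT boxes, Hnrnph1 1 CCAAT box, Srsf4 and Srsf11 1 ETS core each and Hnrnpm 1 TATAAA. A window (at the first listed start where a gene has several) matched for 29 of the 31 members, Hnrnpll and Hnrnpul2 being the others. CCAAT was found in 15 of the 29 (51.7%) against 33.8% of all 32851 promoter windows of this length, CCGGAAG in 6 (20.7%) against 6.91% and GGGCGG in 23 (79.3%) against 32.7%. CACGTG (the E-box) was found in 2 members (6.9%) against 6.02% of all windows, GCATGCG (a core of the NRF1 site) in 2 (6.9%) against 3.02% and TATAAA in 3 (10.3%) against 12.4%. Matches of different motifs may share bases. The members' windows were also richer in G and C, with a median of 65.2% against 52.4% and a median of 23 CpG dinucleotides against 6. These letters describe the windows and do not show that a factor bound there.

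Total counts per library ranged from 23068023 to 71296474. Spns1 itself stood at 36.6 to 59.0 CPM (counts scaled by library size and edgeR's TMM factors) in the libraries labelled Spns1 KO, 39.2 to 62.9 in WT and 39.0 to 58.7 in FeO, so its counts did not separate the groups (log2 fold change -0.31 in the libraries labelled Spns1 KO, standard error 0.18, edgeR adjusted p = 0.225), and Spns1 KO below is what the label says. By library, Spns1 was at 39.0, 44.55, 36.6 and 59.0 CPM in those labelled Spns1 KO 1 to 4. WT 1 to 5 had 57.2, 61.4, 57.6, 39.2 and 62.9 CPM. The first 3 libraries labelled Spns1 KO thus lay below every WT library except WT 4, and the fourth lay inside the WT range. The deposited count covers the whole gene, and not only the floxed exon. Proximal tubule markers such as Lrp2 and Slc34a1 were present in every library, and of 14 listed 11 rose in Spns1 KO, while 2 rose and 1 fell in FeO. Their summed level was 4066 to 5452 CPM in WT, 8588 to 10279 in Spns1 KO and 2841 to 6755 in FeO. Markers of other kidney cells were detected as well, with no listed marker at 0 in any library. In Spns1 KO and FeO respectively, 2 and 6 of 11 leukocyte, 2 and 3 of 6 podocyte, 2 and 2 of 7 endothelial, 1 and 2 of 4 thick ascending limb, 3 and 5 of 11 distal and collecting duct, and 3 and 0 of 6 fibroblast markers rose, and 1 distal marker fell in Spns1 KO and 1 endothelial marker in FeO. All these marker counts use the limits defined below and are to be read beside the shares of all tested genes. Of all tested genes, 14% rose and 7.55% fell in Spns1 KO, and 22.4% rose and 19.7% fell in FeO. Leukocyte markers summed to 59.0 to 70.5 CPM in WT, 88.7 to 121 in Spns1 KO and 91.7 to 138 in FeO. Endothelial markers summed to 240 to 299, 321 to 365 and 216 to 382 CPM, and fibroblast markers to 93.2 to 138, 158 to 203 and 72.8 to 160 CPM in the same order. The part that a shift in cell types has in any result below was not tested, and in bulk RNA fewer cells of a type cannot be told apart from less RNA per cell.

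In WT the 2 families differed widely in level among their own members. Levels between genes are compared here as CPM per kilobase of a gene's median annotated transcript. The highest SR gene was Srsf11, an SR-like factor, at 511 ± 56.1 CPM per kilobase (SD, n = 5), ahead of Srsf5 at 408 ± 48.4 and Srsf2, which binds exonic enhancers, at 266 ± 37.9. The highest hnRNP gene was Hnrnph1, which binds runs of G, at 673 ± 89.6 CPM per kilobase, ahead of Hnrnpk, which binds C-rich RNA through KH motifs, at 479 ± 27.8 and Hnrnpa2b1 at 323 ± 30.1. At the lower end, Srsf9 stood at 10.2 ± 0.63 and Hnrnpll at 15.5 ± 1.47 CPM per kilobase. The order depends on the length used. The median covers non-coding transcripts as well, and for both top genes it was shorter than their coding sequence. It was 865 bases for Hnrnph1, which has 472 codons, and 940 bases for Srsf11, which has 511, so their top rank is uncertain. With the longest transcript instead, Srsf11 came to 155 CPM per kilobase, behind Srsf2 at 186.5 and Srsf5 at 175, and Hnrnph1 to 127, second behind Hnrnpa2b1 at 138. Srsf12 was the member below the filter on low counts. Its counts were 16, 9, 5 and 16 in the libraries labelled Spns1 KO 1 to 4, 13, 9, 6, 9 and 8 in WT 1 to 5, and 1, 6, 0 and 6 in FeO 1 to 4. The count of 0 in FeO 3 allows up to 0.118 CPM (3 counts, counting error only). A fit with no filter on low counts put Srsf12 at a log2 fold change of -0.10 in Spns1 KO (edgeR adjusted p = 0.952) and -1.26 in FeO (edgeR adjusted p = 0.144).

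The tested members were abundant, and their fold changes were small. Over the 30 tested members the median of the mean CPM was 181.8, against 16.49 over all 16468 tested genes. The median size of the log2 fold change, whatever its sign, was 0.21 in Spns1 KO and 0.17 in FeO, against 0.40 and 0.56 over all tested genes. The median standard error in Spns1 KO was 0.17 against 0.23. A gene is called changed here when the Benjamini-Hochberg adjusted p of its edgeR test is under 0.05 and its log2 fold change is beyond 0.5 in either direction. Each count is for a whole gene, so it does not separate coding transcripts from those annotated as decay targets or with a retained intron. Of 19 annotated transcripts of Srsf11, for example, 3 are decay targets and 11 retain an intron.

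**Figure D1:**
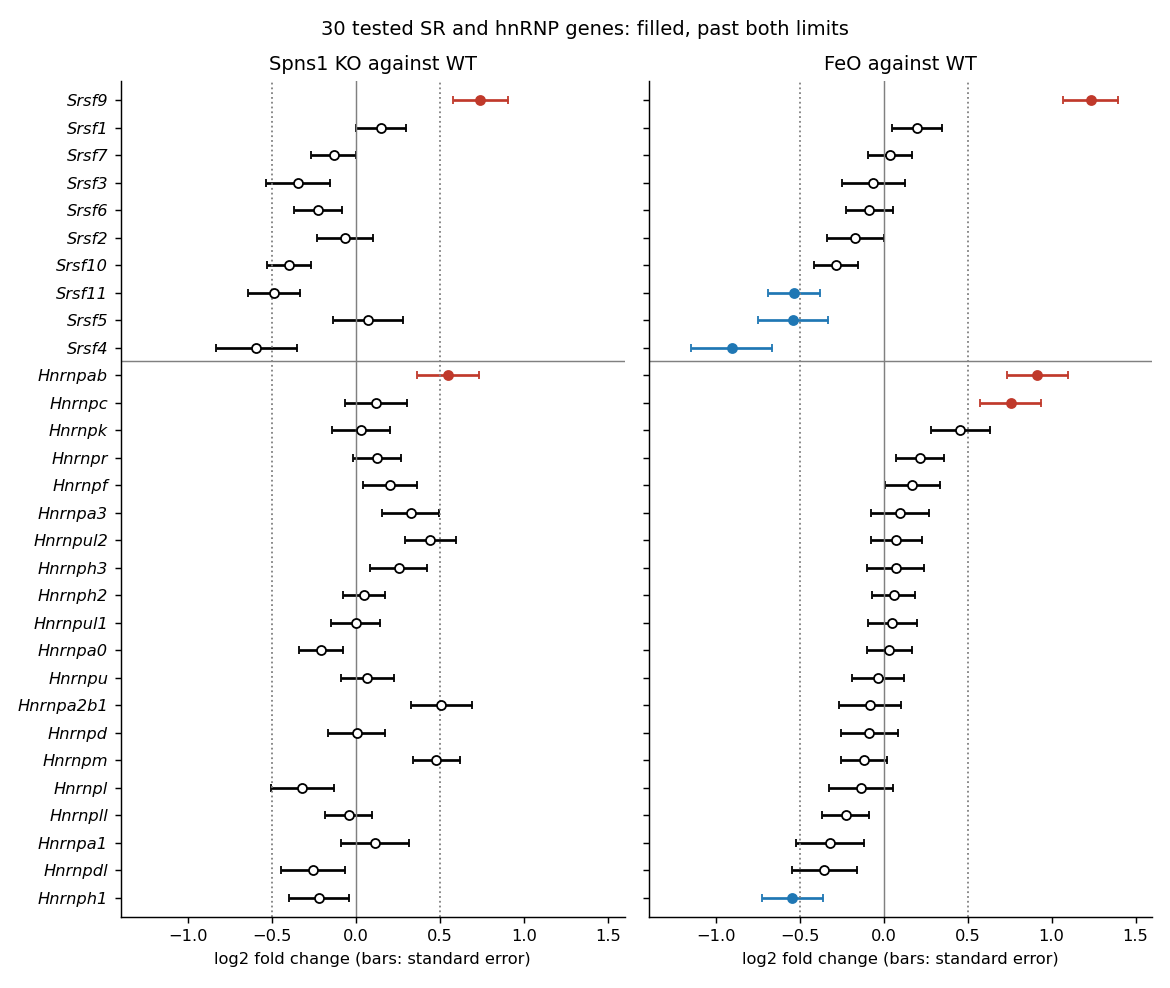
Log2 fold change against WT (x axis; bars, standard error) of the 30 tested genes, SR genes above the line and hnRNP genes below it, in Spns1 KO (left) and FeO (right). Filled points passed both limits (red higher, blue lower), open points did not, and dotted lines mark 0.5 in either direction; 2 genes rose in Spns1 KO, and 3 rose and 4 fell in FeO.

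In Spns1 KO against WT, Srsf9 and Hnrnpab rose, by 1.67-fold and 1.46-fold, and no member fell past both limits. The 2 upregulated members are 6.67% of 30, where 14% of all tested genes were upregulated, and the 0 downregulated members compare with 7.55% of all tested genes. At an unadjusted p under 0.05 edgeR gave 5 higher and 3 lower members, 8 of 30, where 6109 of all 16468 tested genes passed. DESeq2, with its own size factors, called 3 higher and 0 lower, the third being Hnrnpa2b1. Over 17033 genes it called 2594 higher and 1610 lower. In all, 17 of the 30 members lay above 0, where 7705 of the 16468 tested genes did. Of the 10 SR genes 7 lay below 0, with a median log2 fold change of -0.18, and of the 20 hnRNP genes 14 lay above 0, with a median of 0.09, where the median of all tested genes was -0.05. With library totals in place of TMM factors the median of all genes moved to -0.18, that of SR genes to -0.31 and that of hnRNP genes to -0.04, so the sign for hnRNP genes depends on the scaling. The same scaling gave 1 member higher (Srsf9) and 3 lower (Srsf4, Srsf10 and Srsf11), and over all genes it turned 2307 upregulated and 1243 downregulated into 1739 and 2086.

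Srsf9 encodes a small SR protein with a short RS tail that acts at several alternative exons. It lies at chr5:115327177-115333080 and its level was 11.7, 12.7, 11.5, 10.8 and 12.4 CPM in WT 1 to 5. The libraries labelled Spns1 KO 1 to 4 had 22.2, 19.2, 23.2 and 14.5 CPM. Every library labelled Spns1 KO stood above every WT library, with the fourth nearest to WT. On library totals the groups overlapped, since the library labelled Spns1 KO 4 was at 13.60 CPM and WT 5 at 13.96 CPM. The log2 fold change was 0.74 (standard error 0.16, edgeR adjusted p = 0.00556). None of its 31-base sequences occur in another annotated gene, and 307 to 1488 counts per library were assigned to it. A trend on transcript length and GC content, removed with the longest transcript of each gene, took it to 0.38 (edgeR adjusted p = 0.0584), the lowest of 24 alternatives and the only one in which the call was lost.

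Hnrnpab encodes hnRNP A/B, a protein related to hnRNP D that also serves as a transcriptional regulator. The gene lies at chr11:51600100-51606847, and its level was 134.7, 123.5, 127.7, 132.9 and 130.2 CPM in WT 1 to 5. The libraries labelled Spns1 KO 1 to 4 had 214.3, 195.8, 224.5 and 124.4 CPM. The first 3 stood above all WT libraries, whereas the library labelled Spns1 KO 4 lay inside the WT range. Its log2 fold change was 0.55 (standard error 0.18, edgeR adjusted p = 0.0405). The call was lost in 8 of 13 fits that left out 1 library, namely Spns1 KO 1, 2 or 3 or any WT library, with log2 fold changes of 0.46 to 0.57 and edgeR adjusted p of 0.0543 to 0.14. Without the library labelled Spns1 KO 4 the log2 fold change was 0.71 (edgeR adjusted p = 0.0035). A stretch of 26% of its 31-base sequences is also part of Phykpl on the opposite strand, which stood at 8.93 CPM in WT and 12.6 in Spns1 KO. The sources do not say whether counting used strand.

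**Figure D2:**
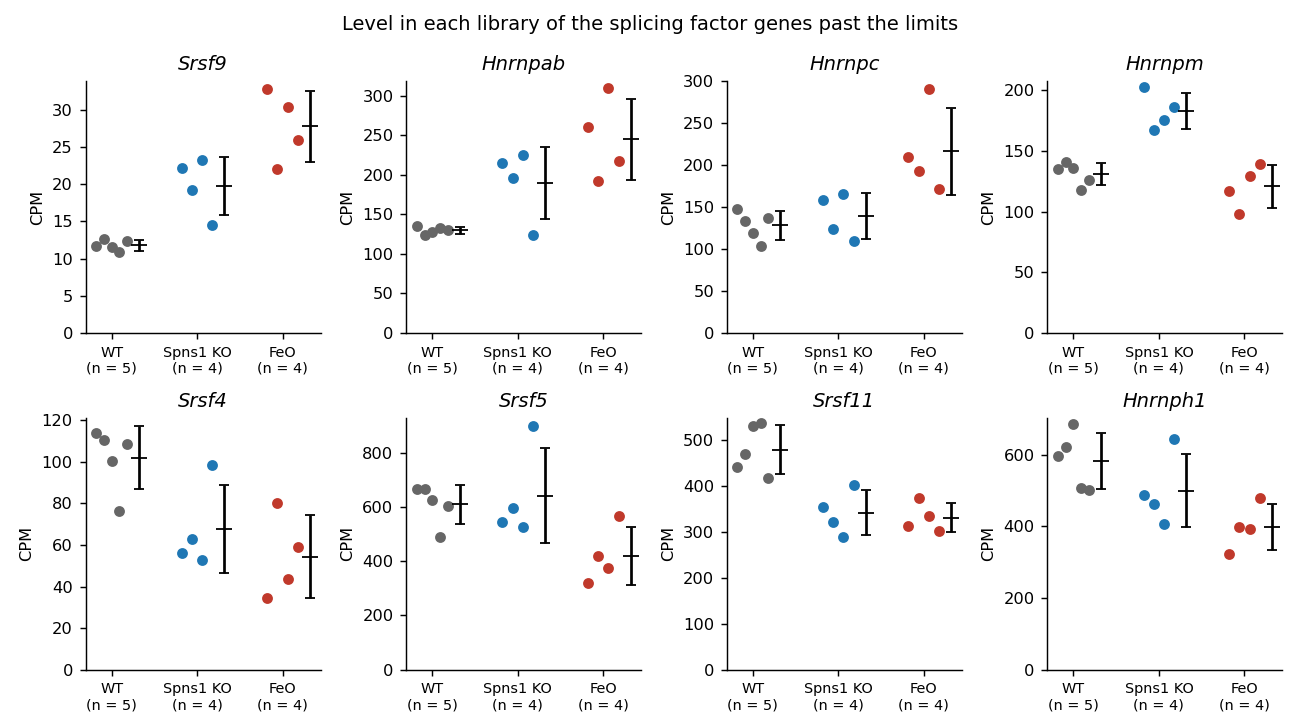
Level in CPM (y axis, from 0) of the 8 members that passed both limits in any comparison, in each WT (grey), Spns1 KO (blue) and FeO (red) library, with the mean and SD of each group in black. For Srsf9, the 5 WT libraries lie between 10.8 and 12.7, and every other library lies above them.

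Another 4 members passed the limit on adjusted p in Spns1 KO but stayed under the fold limit. Hnrnpm, which binds GU-rich RNA, was at 135.0, 140.8, 135.8, 117.5 and 125.5 CPM in WT 1 to 5 and at 202.1, 167.2, 175.4 and 185.6 CPM in the libraries labelled Spns1 KO 1 to 4. The groups did not overlap, and the log2 fold change was 0.48 (standard error 0.14, edgeR adjusted p = 0.0212). Hnrnpul2, related to the scaffold protein hnRNP U, was at 149.9, 154.9, 160.1, 166.5 and 167.4 CPM in WT and at 239.3, 222.9, 216.3 and 190.4 CPM in Spns1 KO. Again all libraries labelled Spns1 KO stood above WT, by 0.44 on the log2 scale (standard error 0.15, edgeR adjusted p = 0.046). With the length and GC trend removed this value was 0.76 (edgeR adjusted p = 0.00547) and past both limits.

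The other pair lay on the lower side. Srsf11 was at 442.1, 471.0, 531.1, 536.8 and 418.6 CPM in WT 1 to 5 and at 354.3, 322.1, 288.8 and 403.6 CPM in the libraries labelled Spns1 KO 1 to 4, so all of the latter lay below WT. Its log2 fold change was -0.49 (standard error 0.16, edgeR adjusted p = 0.0341). Srsf10, which turns into a splicing repressor when it is dephosphorylated, was at 134.4, 138.1, 153.1, 150.7 and 142.0 CPM in WT. In Spns1 KO it was at 99.6, 96.9, 113.9 and 125.2 CPM, without overlap with WT and at a log2 fold change of -0.40 (standard error 0.13, edgeR adjusted p = 0.0367). With library totals, and for Srsf11 also with the length and GC trend removed, these passed both limits.

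Hnrnpa2b1 and Hnrnpa3, close relatives that bind single-stranded RNA through paired recognition motifs, did not pass. Hnrnpa2b1 was at 525.6, 534.8, 544.2, 456.4 and 445.2 CPM in WT 1 to 5 and at 730.6, 719.6, 683.8 and 719.3 CPM in the libraries labelled Spns1 KO 1 to 4. All 4 lay above WT and close together, at a log2 fold change of 0.51 (standard error 0.18) and an edgeR adjusted p of 0.0552. Hnrnpa3 was at 268.7, 262.4, 254.7, 211.7 and 260.6 CPM in WT and at 278.3, 289.9, 339.8 and 354.3 in Spns1 KO, at a log2 fold change of 0.33 (standard error 0.17, edgeR adjusted p = 0.176). Its groups did not overlap, but 26.6% of its 31-base sequences occur in the pseudogene Gm5641, whose own level was 37.8 CPM in WT and 98.5 in Spns1 KO.

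In all, 5 members had every library labelled Spns1 KO above every WT library (Srsf9, Hnrnpm, Hnrnpul2, Hnrnpa2b1 and Hnrnpa3) and 2 had every library below (Srsf10 and Srsf11). Over all tested genes 13.1% lay above and 9.38% below in this way. On library totals the counts were 2 above and 4 below, but the shares over all tested genes were not computed on that scale. The same scaling moved the median log2 fold change of all tested genes from -0.05 to -0.18. Leaving out the library labelled Spns1 KO 4 gave 3 higher members (Srsf9, Hnrnpab and Hnrnpul2) and 3 lower ones (Srsf4, Srsf11 and Hnrnpl). Over 16651 tested genes the same fit called 3003 higher and 2677 lower, against 2307 and 1243 with every library.

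In FeO against WT, Srsf9, Hnrnpab and Hnrnpc rose and Srsf4, Srsf5, Srsf11 and Hnrnph1 fell. The 3 upregulated members are 10% of 30, where 22.4% of all tested genes were upregulated, and the 4 downregulated members are 13.3%, where 19.7% of all tested genes were downregulated. By family, 1 SR gene rose and 3 of 10 fell, whereas 2 hnRNP genes rose and 1 of 20 fell. The median log2 fold change was -0.13 for SR genes and 0.04 for hnRNP genes, against -0.01 over all tested genes. Of the 30 members 14 lay above 0, where 8156 of the 16468 tested genes did. Srsf9, Hnrnpab, Hnrnpc and Srsf4 were called in each of the 24 alternatives.

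The level of Srsf9 was 32.8, 22.0, 30.4 and 25.9 CPM in FeO 1 to 4, against at most 12.7 CPM in WT. All FeO libraries lay above WT, and the mean of 27.8 ± 4.77 CPM (SD, n = 4) compares with 11.8 ± 0.73 in WT (SD, n = 5). The change was 2.35-fold, a log2 fold change of 1.23 (standard error 0.16, edgeR adjusted p = 0.000384), and it ranged from 0.75 to 1.35 over the alternatives, lowest with the length and GC trend taken from the longest transcripts.

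Hnrnpab was at 259.8, 192.6, 309.0 and 217.5 CPM in FeO 1 to 4. All 4 lay above the WT range of 123.5 to 134.7 CPM, and the log2 fold change was 0.92 (standard error 0.18, edgeR adjusted p = 0.00139). Phykpl on the opposite strand was at 11.5 CPM in FeO, far below the level of Hnrnpab itself.

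Hnrnpc encodes the hnRNP C proteins, which bind uridine tracts and in human cells keep cryptic exons out of mRNA. It lies at chr14:52073377-52104028 and was at 148.2, 133.0, 119.1, 103.4 and 137.3 CPM in WT 1 to 5. In FeO 1 to 4 it was at 210.3, 193.0, 291.0 and 171.3 CPM, all above WT. The log2 fold change was 0.76 (standard error 0.18, edgeR adjusted p = 0.00459), or 0.58 without FeO 3, the highest library. Levels in the libraries labelled Spns1 KO were 158.2, 124.5, 165.7 and 109.2 CPM, of which 2 lay above the WT range and 2 inside it.

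Srsf4 encodes SRp75, the SR protein whose coding sequence holds the most arginine-serine pairs here (106). The gene lies at chr4:131873617-131901706, and its level was 113.9, 110.6, 100.3, 76.5 and 108.3 CPM in WT 1 to 5. In FeO 1 to 4 it was 34.5, 80.4, 43.5 and 59.2 CPM, and FeO 2 overlapped with WT 4. Srsf4 fell by 0.91 on the log2 scale (standard error 0.24, edgeR adjusted p = 0.00804). In the libraries labelled Spns1 KO it was at 56.4, 62.8, 52.7 and 98.7 CPM, of which only the fourth lay in the WT range, and the log2 fold change of -0.59 did not pass (standard error 0.24, edgeR adjusted p = 0.0857). An annotated antisense RNA, Gm12992, shares 41% of its 31-base sequences and has no row in the table.

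Srsf11 (chr3:158010473-158036639) was at 314.0, 373.7, 336.1 and 302.1 CPM in FeO 1 to 4, all below the lowest WT library at 418.6 CPM. Its log2 fold change was -0.53 (standard error 0.16, edgeR adjusted p = 0.0125). The value came back under the fold limit, at -0.49 to -0.47, when WT 3, WT 4, FeO 1 or FeO 4 was left out.

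Hnrnph1 (chr11:50376990-50386528) was at 595.2, 620.4, 685.3, 508.2 and 502.9 CPM in WT 1 to 5 and at 324.0, 399.1, 394.0 and 480.0 CPM in FeO 1 to 4. All FeO libraries lay below WT, and the log2 fold change was -0.54 (standard error 0.18, edgeR adjusted p = 0.0242). Without WT 2, WT 3 or FeO 1 the edgeR adjusted p rose to between 0.0518 and 0.0829. Levels in the libraries labelled Spns1 KO were 487.0, 461.5, 407.1 and 644.4 CPM, the first 3 below the WT range and the fourth inside it, and the log2 fold change there was -0.22 (standard error 0.18, edgeR adjusted p = 0.389).

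Srsf5 encodes SRp40, an SR protein first cloned as a gene induced in regenerating liver. It lies at chr12:80945504-80950507 and was at 664.7, 665.2, 624.0, 488.7 and 605.1 CPM in WT 1 to 5. In FeO 1 to 4 it was at 318.8, 417.5, 374.1 and 566.2 CPM. FeO 4 lay inside the WT range and the other FeO libraries below it, and the log2 fold change was -0.54 (standard error 0.21, edgeR adjusted p = 0.0471). This call was lost in 10 of 13 fits without 1 library (Spns1 KO 1, 2 or 3, WT 1, 2, 3 or 5, FeO 1, 2 or 3), at -0.54 to -0.41 with edgeR adjusted p of 0.0514 to 0.149. In the libraries labelled Spns1 KO it stood at 543.5, 597.1, 525.6 and 899.4 CPM, and the fourth was the highest of all 13 libraries.

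Of the remaining named members, Srsf10 in FeO was at 109.4, 119.5, 131.3 and 111.5 CPM, all below WT, at a log2 fold change of -0.28 that did not pass (standard error 0.13, edgeR adjusted p = 0.0838). Hnrnpul2 in FeO was at 149.2, 132.7, 176.7 and 214.6 CPM and Hnrnpa3 at 284.6, 189.3, 265.9 and 336.9 CPM, and both spread around WT. In total 3 members had every FeO library above WT (Srsf9, Hnrnpab and Hnrnpc) and 3 below (Srsf10, Srsf11 and Hnrnph1), where 16.9% of all tested genes lay above and 16.4% below. Summed over the SR family, every FeO library (1646.1 to 2068.7 CPM) was below every WT library (2122.4 to 2507.2 CPM), and this also held on library totals (1704.7 to 2179.6 against 2207.2 to 2644.9 CPM). In Spns1 KO the SR sum overlapped WT, at 1967.9 to 2544.5 CPM with the library labelled Spns1 KO 4 highest, and on library totals at 1851.8 to 2392.1 CPM. The hnRNP sum was 3608.3 to 4590.6 CPM in FeO and 3755.6 to 4257.2 in WT. In Spns1 KO the hnRNP sum was 4361.8 to 4580.8 CPM, above WT, but on library totals it overlapped (4156.6 to 4306.4 against 3905.5 to 4540.9 CPM). These sums weigh the most abundant members most and were not tested.

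**Figure D3:**
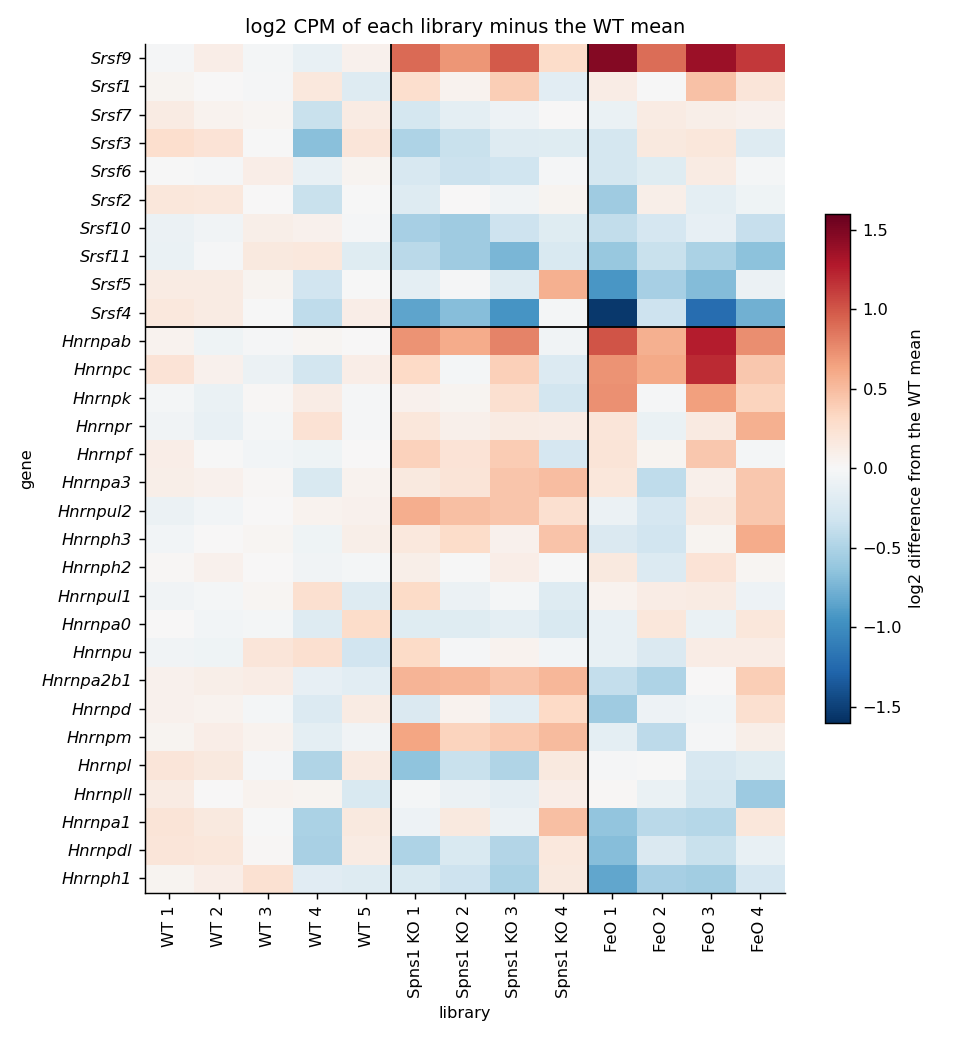
Log2 CPM of each library minus the mean of the WT libraries (colour, red higher and blue lower) for the 30 tested genes (rows, SR genes above the line) in the 13 libraries (columns, in the order WT, Spns1 KO, FeO). Srsf9 is red in all 8 libraries of the models, and Srsf4 is blue in all FeO libraries.

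The direct comparison of Spns1 KO with FeO asked where the 2 models part. Hnrnpm was higher in Spns1 KO and Hnrnpc lower, each 3.33% of the 30 tested members, where 6.76% of all tested genes were higher and 8.1% lower. Hnrnpm was at 117.0, 97.6, 129.0 and 139.2 CPM in FeO 1 to 4, all below the libraries labelled Spns1 KO, of which the lowest was at 167.2 CPM. The log2 fold change was 0.60 (standard error 0.15, edgeR adjusted p = 0.0153), and it came to 0.54 with the library labelled Spns1 KO 1 left out (edgeR adjusted p = 0.0517). Hnrnpm shares 14% of its 31-base sequences with its neighbour March2 on the same strand. For Hnrnpc the log2 fold change was -0.63 (standard error 0.20, edgeR adjusted p = 0.0407), with the highest library labelled Spns1 KO at 165.7 CPM and the lowest FeO library at 171.3 CPM. That call was lost in 8 of 13 fits without 1 library (Spns1 KO 1, 2 or 4, WT 1, 2 or 3, FeO 1 or 3), at -0.70 to -0.46 with edgeR adjusted p of 0.0506 to 0.12.

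For other members the test between the models did not pass. The log2 value of Spns1 KO minus FeO was -0.49 for Srsf9 (standard error 0.17, edgeR adjusted p = 0.0648). Hnrnpa2b1 was at 382.3, 355.5, 501.5 and 658.1 CPM in FeO, below every library labelled Spns1 KO, and Spns1 KO minus FeO was 0.59 (standard error 0.19, edgeR adjusted p = 0.0521). For Srsf5 the difference was 0.61 (standard error 0.22, edgeR adjusted p = 0.0698). DESeq2 called Hnrnpa2b1, Hnrnpm and Srsf5 higher and Hnrnpc and Srsf9 lower in Spns1 KO than in FeO. Over 17033 genes it called 1519 higher and 1767 lower. For Srsf4 and Srsf11 the differences were 0.31 (standard error 0.25) and 0.05 (standard error 0.16).

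The other 18 tested members stayed under the limits in both models. In Spns1 KO their log2 fold changes ran from -0.35 in Srsf3 to 0.25 in Hnrnph3, and the smallest edgeR adjusted p was 0.197. In FeO they ran from -0.35 in Hnrnpdl to 0.46 in Hnrnpk, whose edgeR adjusted p of 0.0436 passed while its fold did not, and the next highest was 0.22 in Hnrnpr. They include Srsf1, the best studied SR protein, at a log2 fold change of 0.15 in Spns1 KO (standard error 0.15) and of 0.20 in FeO (standard error 0.15), and Hnrnpa1, its classical antagonist, with 0.11 and -0.32 (standard errors 0.20 and 0.20). Hnrnpu, a nuclear scaffold protein, stood at 0.07 and -0.03 (standard errors 0.16 and 0.16), and Hnrnpl, which binds CA repeats, at -0.32 and -0.14 (standard errors 0.19 and 0.19). Of the 18, Hnrnpf shared 66.2% of its 31-base sequences with other genes, Hnrnpa1 29.9%, Srsf2 23.1%, Hnrnph2 22% and Hnrnpk 21.1%, so their counts are less certain.

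The other splicing genes are given list by list, each count to be read beside the shares of all tested genes, which in Spns1 KO were 14% upregulated and 7.55% downregulated, and in FeO 22.4% and 19.7% in that order. Of the Sm and LSm proteins, the small ring proteins of the snRNPs, 7 of 15 rose in Spns1 KO and 14 of 15 in FeO, and none fell (median log2 fold changes 0.69 and 1.12). With 1 library left out the counts were 7 to 8 and 13 to 14. Snrpd2 rose by 1.38 and 1.32, Lsm4 by 1.11 and 1.19 and Snrpe by 0.86 and 1.37 in the 2 models, and Snrpg by 1.29 in FeO. Of the SR-related proteins, which carry RS domains outside the Srsf family, 4 of 20 fell in Spns1 KO and 11 of 20 in FeO, and none rose (medians -0.20 and -0.56). The count for Spns1 KO was 1 to 5 with 1 library left out and 1 with no filter on low counts. The count for FeO was 5 to 12 with 1 library left out and 7 with no filter. Among them were Son, a scaffold of nuclear speckles (-0.66 and -1.08), Srrm1, a coactivator that bridges SR proteins (-0.60 and -0.85), Scaf8 (-0.60 and -0.70), and in FeO Scaf4 (-1.16). Scaf4 and Scaf8 are known for preventing early transcript termination. SR protein kinases, which phosphorylate the RS domains, had 1 of 9 downregulated in Spns1 KO and 5 of 9 in FeO (medians -0.28 and -0.51), where no filter gave 1 and 3. Dyrk1a fell in both (-0.77 and -0.57), and Clk2 (-0.77), Clk4 (-0.71) and Clk1 (-0.67) fell in FeO.

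Transcript length differed between these lists, and the relation of level to length differed between the libraries. In each library, the slope on log2 transcript length was computed for log2 CPM minus the gene's mean over all libraries. This slope was 0.07 to 0.20 in WT and -0.15 to -0.05 in FeO. In Spns1 KO it was -0.11 to 0.05, with the library labelled Spns1 KO 4 highest. Its sign is therefore relative to the other libraries. Transcripts of the Sm and LSm genes had a median length of 665 bases, against 1525 over all tested genes, 1482.8 for the SR and 1710 for the hnRNP members and 1495.2 for SR-related genes. With the trend on median transcript length and GC content removed, 8 Sm and LSm genes rose in Spns1 KO and 13 in FeO, 2 SR-related genes fell in Spns1 KO, and in FeO 1 rose and 9 fell, and of the kinases 1 fell in Spns1 KO and 4 in FeO. With the trend taken from the longest transcripts, an alternative chosen after seeing the data, 5 Sm and LSm genes rose in Spns1 KO and 12 in FeO, whereas SR-related genes had none that fell in Spns1 KO, and 1 rose and 2 fell in FeO, and of the kinases 1 fell in each. Without FeO 1, 5 SR-related genes and 1 kinase were downregulated in FeO, and without FeO 3, 2 kinases were. Over the members themselves the log2 fold change had little relation to transcript length (Pearson r = -0.06 in Spns1 KO and 0.02 in FeO over 30 genes, against -0.26 and -0.27 over 16187 tested genes with a length). This is a description across genes, which share the same libraries and are not independent replicates.

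Among 17 hnRNP proteins under other symbols, 3 fell in Spns1 KO, and in FeO 4 rose and 2 fell (medians -0.08 and -0.22). The FeO counts are near the share of all tested genes for those that rose (22.4%) and under it for those that fell (19.7%). In Spns1 KO 0 to 3 rose and 0 to 3 fell with 1 library left out, with 0 of each without Spns1 KO 1, 2 or 3, and 3 up and 2 down without Spns1 KO 4. The poly-C binding proteins Pcbp1 and Pcbp2, known also as iron chaperones, rose in FeO by 0.87 and 0.78, as did Raly, a relative of hnRNP C, by 0.76, while Ptbp2, a repressor of exons known mainly from neurons, fell in both (-0.93 and -1.20). Of 23 other splicing regulators 7 fell in Spns1 KO, where 7.55% of all tested genes fell, and in FeO 1 rose and 7 fell, where 19.7% fell (medians -0.38 and -0.31). The count in Spns1 KO was 1 to 8 when 1 library was left out and 3 with no filter. With the length and GC trend removed 4 fell in Spns1 KO and 8 in FeO, and with the trend of the longest transcripts 1 and 3. Mbnl2 (-0.64 and -0.88) and Rbfox2 (-0.59 and -0.85), which bind defined short motifs around alternative exons, fell in both, and Rbm25 (-0.91) and Nova1 (-0.89) in FeO.

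**Figure D4:**
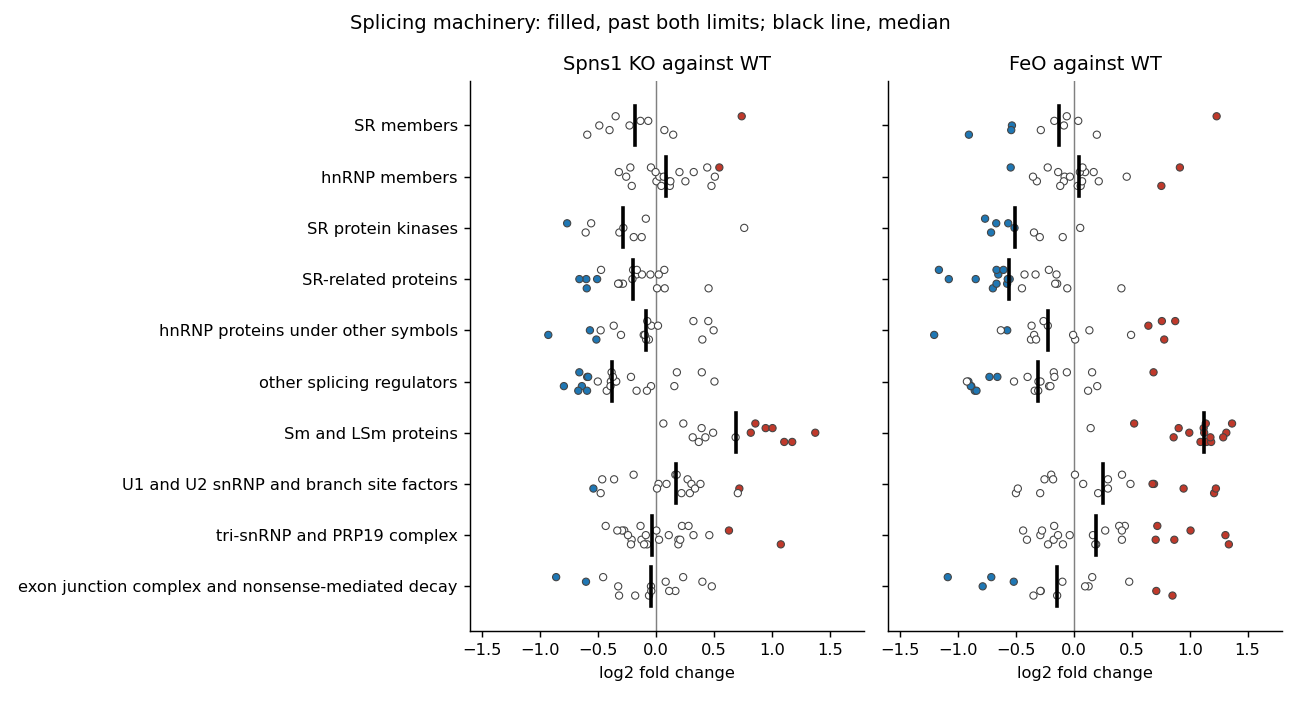
Log2 fold change against WT (x axis) of each tested gene of the SR and hnRNP members and of 8 further splicing lists (y axis), in Spns1 KO (left) and FeO (right). Red points passed both limits upward, blue points downward, open points did not pass, and black lines are medians; the medians of the Sm and LSm list, 0.69 and 1.12, lie farthest to the right.

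Of 18 U1 and U2 snRNP and branch site factors, 1 rose and 1 fell in Spns1 KO and 5 rose in FeO (medians 0.17 and 0.25), so the share that rose was below that of all tested genes in Spns1 KO (14%) and near it in FeO (22.4%). Snrpa, the U1 A protein, rose in both (0.72 and 0.95), and Sf3b6 (1.23), Sf3b5 (1.21) and Snrpc (0.69) in FeO. Of 24 tri-snRNP and PRP19 complex genes, 2 rose in Spns1 KO and 6 in FeO with none down (medians -0.03 and 0.19), again below that share in Spns1 KO and near it in FeO. Among them were Txnl4a (1.08 and 1.34), Snrnp27 (0.63 and 1.01), Bud31 (1.31) and Ppih (0.87), the last pair in FeO. In Spns1 KO, with 1 library left out, the U1 and U2 list had 0 to 2 up and 0 to 2 down. The tri-snRNP and PRP19 list had 1 to 2 up and none down. In FeO these ranges were 5 to 6 up and 0 to 2 down, and 6 to 10 up and 0 to 2 down. Median transcript lengths of these 2 lists were 913.5 and 798 bases, against 1525 over all tested genes. Exon junction complex and nonsense-mediated decay genes, through which SR and hnRNP genes limit their own mRNA, counted 2 downregulated of 15 in Spns1 KO and, in FeO, 2 upregulated and 4 downregulated (medians -0.04 and -0.14), where 7.55% of all tested genes fell in Spns1 KO, and in FeO 22.4% rose and 19.7% fell. In Spns1 KO 0 to 3 fell with 1 library left out, and none with the trend of the longest transcripts removed. Smg1, a kinase of the decay pathway, fell in both (-0.86 and -1.09), Eif4a3, a core helicase of the exon junction complex, rose in FeO (0.85), and Casc3 (-0.71) fell there. Every value in these lists is an edgeR log2 fold change against the same 5 WT libraries, so the 2 models are not independent of each other.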

How the data were processed

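Thiol-tagged RNA from 13 kidney samples was captured by the authors through biotin and streptavidin, enriched for poly-A RNA and read from both ends. They deposited an estimated count per gene and library, in whole numbers and without normalization. These counts are named for kallisto, and the submitters' processing notes list bcl2fastq 2.19, kallisto 0.44.0, DESeq2 and GRCm38. The study's methods instead describe STAR alignment to mm10 and HTSeq counting, and the sources do not explain the mismatch. Strandedness is not given in the sources used here. Reads shared by near-identical genes may be split differently by these tools.

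From these counts, CPM were computed with edgeR 4.0.16 (R 4.3.3) and TMM factors, and log2 fold changes with standard errors were fitted with its quasi-likelihood test in 1 fit of all 13 libraries, after filterByExpr kept 16468 of 35013 genes. The Benjamini-Hochberg adjustment ran over all tested genes, and the steps were tested on simulated data. Alternatives used DESeq2 1.42.0, limma-voom (limma 3.58.1), other scaling factors, no filter, 2 groups only, a replicate block, a spline trend on length and GC, and each library left out. Libraries of a group were compared by chi-square of their counts over genes. WT 1 and WT 2 were closest, at 7.857 per degree of freedom, and other pairs lay between 36.47 and 301.3. Within Spns1 KO, pairs that held the library labelled Spns1 KO 4 lay between 172.6 and 301.3, and the other pairs between 48.79 and 66.29. FeO pairs lay between 115.4 and 234. Each pair differed by more than sampling noise, which gives 1 per degree of freedom. The check cannot tell separate mice from repeated preparations of a kidney, and every library was counted once. Lengths, positions and coding sequences came from GENCODE M21 (GRCm38) and promoters from RefSeq (GRCm38.p6). Depth was 23068023 to 71296474 counts per library, and intervals and floors cover counting error only. Values in every library are given for members past the limits in any comparison, for the highest member per kilobase in each family and for members without overlap with WT; of each pathway list at most 4 called genes with the largest change are named. A result that this rule would name is not reported here. Malat1 and Neat1, listed as nuclear RNA, were not analysed here. The members and lists were chosen with earlier results of these data known.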

Additional observations from a re-analysis of the deposited data

Results flagged for a closer look

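In WT, 1 library stood apart from the other 4 for 4 members by Dixon's criterion, and it was WT 4 each time. Hnrnpa3 was at 212 CPM in WT 4 against 255 in the nearest library, Hnrnpdl at 147 against 215, Srsf7 at 49.3 against 64.2 and Hnrnpr at 100 against 84.4. These are 4 of 93 tests of a group and member, and chance alone marks about 1 in 20. The members share libraries, so these tests are not independent. Of all libraries, WT 4 also had the lowest mitochondrial share of counts (11.8%). It had the highest slope on transcript length as well (0.20, on levels relative to each gene's mean over all libraries). The library labelled Spns1 KO 4 had the highest mitochondrial share (26.78%). The direct test between the models set apart Hnrnpc, with a log2 fold change of -0.63 for Spns1 KO minus FeO, and Hnrnpm, with 0.60.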

How the results depend on the processing

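The counts of members past both limits were 2 higher and 0 lower in Spns1 KO, 3 higher and 4 lower in FeO, and 1 higher and 1 lower in Spns1 KO against FeO. RLE factors gave the same counts. With library totals, Spns1 KO had 1 higher and 3 lower members. With no filter on low counts it had 4 higher, FeO had 1 lower, and 0 were lower in Spns1 KO than in FeO. With limma-voom 1 was higher in Spns1 KO, and 2 were higher in Spns1 KO than in FeO. Upper-quartile factors gave 2 for the last count, and DESeq2 3, with 2 lower. With only the 2 groups compared in the fit, 1 was lower in Spns1 KO, and 0 were higher and 0 lower in Spns1 KO than in FeO. With the length and GC trend removed there were 4 higher and 1 lower in Spns1 KO, and 2 higher in Spns1 KO than in FeO. With that trend taken from the longest transcripts, an alternative chosen after seeing the data, there were 5 higher in Spns1 KO, 6 higher and 2 lower in FeO, and 2 higher in Spns1 KO than in FeO. Counts over all tested genes moved as well. In Spns1 KO the settings used above gave 2307 higher and 1243 lower, and library totals gave 1739 and 2086. There no filter gave 2479 and 793, limma-voom 2268 and 1529, and only the 2 groups compared 2763 and 1395. With the length and GC trend removed, Spns1 KO had 2104 and 1010, and with that of the longest transcripts 1753 and 782. In FeO the settings used above gave 3691 and 3252, no filter gave 4177 and 2814, and the trend of the longest transcripts 3164 and 2202. In Spns1 KO against FeO, 1113 and 1334 became 441 and 599 with only the 2 groups compared. The cause of these shifts was not tested.

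Leaving out each library in turn gave 1 to 4 higher and 0 to 3 lower members in Spns1 KO, 3 to 4 higher and 1 to 4 lower in FeO, and 0 to 5 higher and 0 to 3 lower in Spns1 KO against FeO. The highest of these were the 3 lower members in Spns1 KO without the library labelled Spns1 KO 4, and the 5 higher than in FeO without FeO 4 and 3 lower without FeO 2; the lowest for FeO was 1 lower without FeO 1 or WT 3. Spns1 KO had 4 higher members without FeO 1, FeO 2 or FeO 4, and 1 without Spns1 KO 1, WT 1, WT 4 or WT 5. Counts over all tested genes moved too. They were 3003 higher and 2677 lower in Spns1 KO without the library labelled Spns1 KO 4. In FeO they were 3294 higher and 2333 lower without FeO 1. Spns1 KO against FeO had 1364 higher without FeO 4 and 1630 lower without FeO 2. No called member changed sign under any alternative.

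Replicate numbers are shared by the groups, and deviations of same-numbered libraries correlated at -0.30 to 0.26. Libraries with different numbers were not compared in this way, so it cannot be told whether the numbers pair libraries. A fit with the replicate block gave 1 higher member in Spns1 KO and 3 higher and 3 lower in FeO, where Hnrnpab in Spns1 KO (0.52, edgeR adjusted p = 0.0805) and Srsf5 in FeO (-0.59, edgeR adjusted p = 0.0605) no longer passed. Over all tested genes the same fit called 1931 higher and 1057 lower in Spns1 KO, against 2307 and 1243 without the block. In FeO it called 3325 and 3191, against 3691 and 3252. Depth limited only Srsf12. By the fold limit, a log2 change under 0.5 cannot be called whatever its standard error. In Spns1 KO, Srsf10, Srsf11, Hnrnpm and Hnrnpul2 passed on adjusted p but not on fold. The median standard errors near 0.17 bear on the limit on adjusted p.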
